A study of Mus musculus with 12 samples.

Results

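The genes described here encode the machinery that carries new proteins into the endoplasmic reticulum (ER), attaches their first sugars, folds them and moves them to and from the Golgi. They were taken from a list of 49 symbols, set by function with earlier results of these data known. Of the 49, 48 were found among the 16579 genes measured. Sec61g is not analysed here. The measurements are of mRNA that travels with polysomes, the strings of ribosomes taken to be at work on it, in mouse oocytes on 12 Affymetrix arrays, 3 in each of 4 groups. Oocytes came from wild-type mice and from mice without amphiregulin (Areg -/-), both labelled C57BL/6J 129Sv. Amphiregulin, a ligand of the EGF receptor, comes from the granulosa cells once the ovulatory hormones rise, and the series title puts the question of how its loss bears on translation in the oocyte. All mice were injected with PMSG to stimulate follicle growth. Germinal vesicle (GV) oocytes, arrested in meiotic prophase, were collected 48 h later without further hormone (hCG for 0 h). Mature eggs in metaphase II (MII) were collected 14 h after hCG, a stand-in for the natural ovulatory signal. Arrays within a group are biological replicates by their labels. The sources used here do not give the ages of the mice, the numbers of mice and oocytes behind a sample or the form of the Areg allele.

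Most secreted and membrane proteins enter the ER while they are being made. The signal recognition particle (SRP) binds the signal peptide and docks at its receptor, the Sec61 channel lets the chain through, signal peptidase removes the signal peptide, and oligosaccharyltransferase moves a ready-made glycan from dolichol onto the chain. Lectin chaperones then hold the glycoprotein while it folds, COPII coats form the vesicles that leave the ER, and COPI coats form those that bring proteins back from the Golgi. An oocyte makes its zona pellucida glycoproteins and growth factors by this route, and in the mouse the ER itself is rearranged during maturation into clusters below the cell surface.

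The arrays carried oocyte RNA, and their spread changed with stage. The summed linear intensity of 12 oocyte markers ranged from 103026 to 117414 at GV in wild type, 58286 to 69205 at MII in wild type, 96205 to 116891 at GV in the knockout and 56444 to 65315 at MII in the knockout. Summed cumulus and granulosa cell markers, 15 of 15, ranged from 992 to 1217, 1851 to 2237, 965 to 1703 and 1144 to 2009 in the same order, with Has2 and Ptx3 below the lower quartile of every array. Of these markers, 4 of 15 lay above the median brightness of all genes. From GV to MII, 1 of the 15 was higher and 1 lower in each genotype by limma at an adjusted p under 0.05. Summed blood, endothelial, theca and stromal markers, 11 of 13, ranged from 1017 to 1232, 1627 to 3179, 514 to 714 and 620 to 969, with Ptprc, Cdh5 and Lhcgr below the lower quartile of every array. Here 2 of 11 lay above the median brightness, and 1 was higher and 0 lower at MII in each genotype by the same test. The shares of all genes are given in the next paragraph. The interquartile range of log2 values averaged 4.37, 3.82, 4.55 and 3.58 in the same order of groups. The 3′ minus 5′ difference of the Actb control probe sets averaged 0.36, -1.17, 0.05 and -0.77. That of the Gapdh control probe sets averaged 2.00, 3.23, 2.48 and 2.71, so it was higher at MII where that of Actb was lower. Depth in the sense of reads does not apply to arrays, and 3 arrays per group limit the precision. Areg itself averaged 2.36, 2.72, 2.49 and 2.68 log2 units, among the dimmest signals in wild type as in the knockout, so it could not check the genotype labels. The part of the marker levels, the array spread and the RNA ends in the stage differences below was not tested, apart from fits that include the array spread, in which lost calls are named beside their genes.

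Between GV and MII the early secretory genes moved apart, with more falls than rises. In wild type 13 of the 48 were lower at MII and 6 were higher by limma at an adjusted p under 0.05, against 12.6% of all genes lower and 8.97% higher. In the knockout 16 were lower and 7 higher, against 15.2% of all genes lower and 13.0% higher. The members were brighter than most genes, with 45 of 48 above the median brightness. Among the 8289 genes above that median, 23.2% were lower and 15.3% higher in wild type and 27.8% and 14.2% in the knockout. The members' shares of 27.1% lower and 12.5% higher in wild type and 33.3% and 14.6% in the knockout lay near those. The members were brighter still than that set, with a median brightness percentile of 88.0 against 75.0. Their median MII minus GV difference was -0.66 in wild type and -0.71 in the knockout, beside 0.20 and 0.30 for all genes and -0.15 and -0.33 for the bright genes. With each array's interquartile range as a covariate the medians of all genes moved to -0.03 and -0.04 and those of the members to -0.34 and -0.26. In that fit 9 members were lower and 7 higher in wild type, against 9.05% and 9.86% of all genes, and 6 were lower and 5 higher in the knockout, against 5.18% and 5.73%. A fall here means less of a transcript on polysomes relative to the other transcripts of the array. Less mRNA, less loading with ribosomes and fewer oocytes that hold the transcript cannot be told apart.

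**Figure D1:**
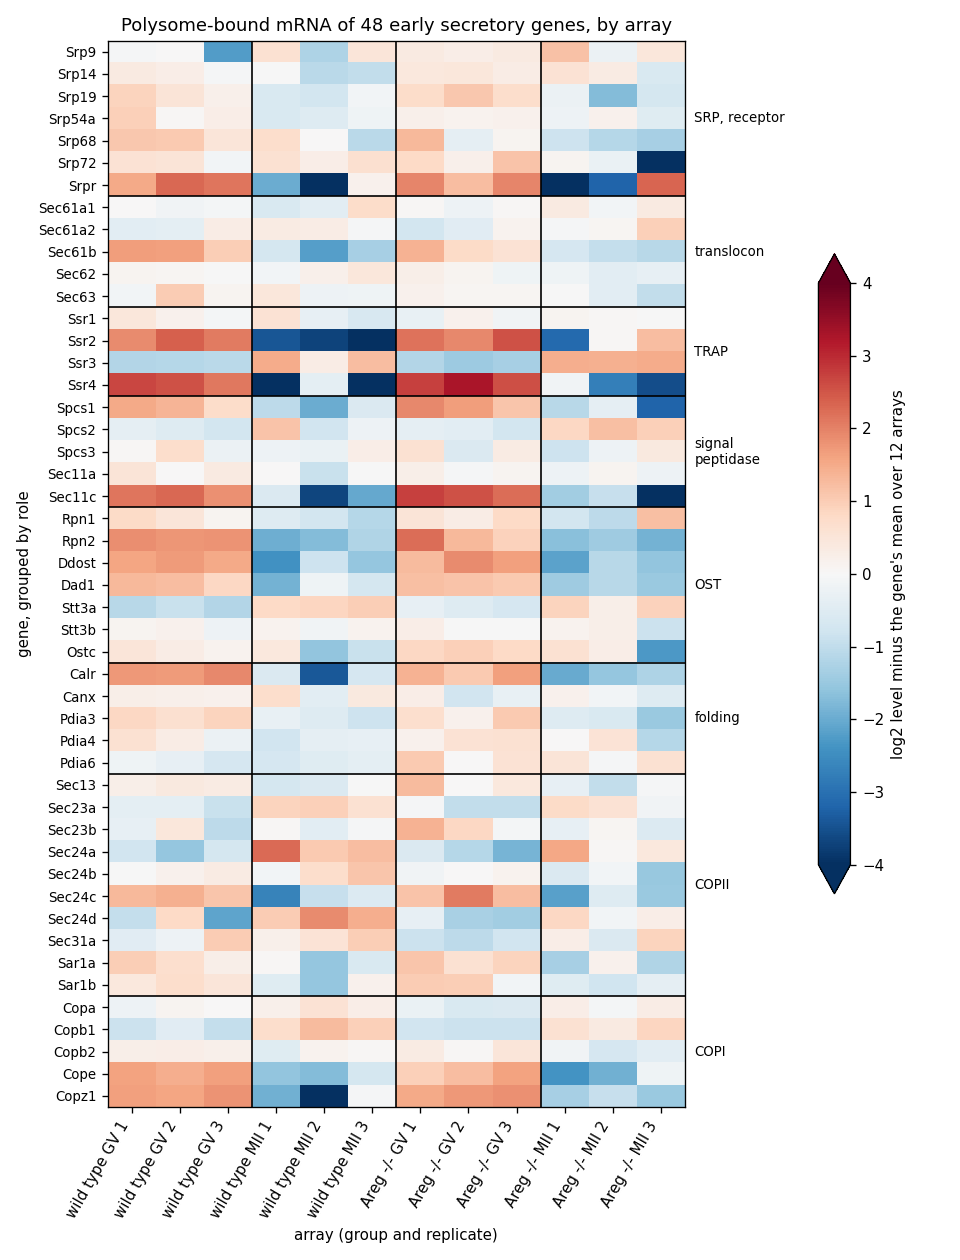
Log2 level of each of the 48 genes (rows, grouped by role) on each of the 12 arrays (columns), shown as the difference from the gene's mean over all arrays. Red is above and blue below that mean, and the colour scale ends at 4 log2 units either way. Ssr4, Sec11c, Rpn2, Ddost and Calr are red on the GV arrays and blue on the MII arrays, Ssr3 and Copb1 are the other way round, and Ssr2 and Srpr differ in colour among the knockout MII arrays.

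**Figure D2:**
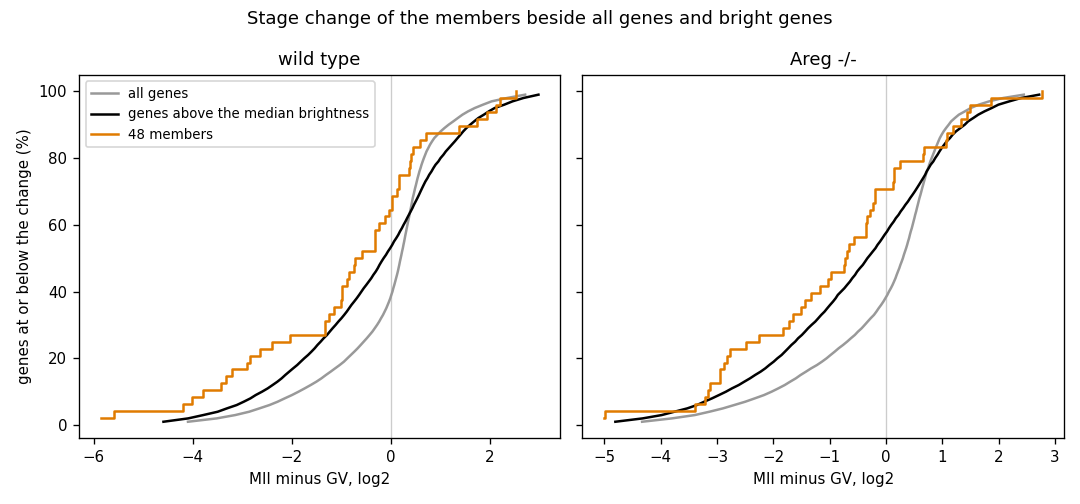
Percent of genes (y axis) at or below each MII minus GV log2 difference (x axis), for all genes, genes above the median brightness and the 48 members, in wild type (left) and the knockout (right). The members' line lies to the left of both others around the middle of the plot, with medians of -0.66 and -0.71, and meets the bright genes' line at the rises.

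Targeting to the ER comes first in the pathway. Of the 7 genes for SRP and its receptor, 0 were called in wild type, against 12.6% of all genes lower and 8.97% higher. Among genes above the median brightness, those wild-type shares were 23.2% and 15.3%. In the knockout 2 of the 7 were called, both lower (28.6%). That is near the 27.8% lower among genes above the median brightness, beside 15.2% of all genes. Srp19, which helps to assemble the particle on its RNA, had MII minus GV differences of -1.01 ± 0.37 in wild type (adjusted p = 0.077) and -1.73 ± 0.37 in the knockout (adjusted p = 0.0065). Srp68, an RNA-binding subunit, gave -0.99 ± 0.49 in wild type (adjusted p = 0.18) and -1.45 ± 0.49 in the knockout (adjusted p = 0.047). The call of Srp68 was lost in 14 of 20 alternatives, among them leaving out any of the 3 wild-type GV arrays, wild-type MII array 2, knockout GV array 1 or 3, any of the 3 knockout MII arrays, a further quantile normalisation (adjusted p = 0.10), the compared groups alone (0.058) and the array spread in the fit (adjusted p = 0.55). Srp19 was not called once the array spread entered the fit (adjusted p = 0.46). Srp9 and Srp14, which together form the part of the particle that slows the ribosome, showed differences of 0.71 and 0.15 and of -0.88 and -0.29 in wild type and the knockout, none of them called. Srp54a, whose product binds the signal peptide, stood at -0.85 and -0.35, with an adjusted p of 0.051 in wild type. The mouse has near-identical copies of Srp54a, which its probe set may not tell apart. In wild type, single left-out arrays brought Srp14 (wild-type MII array 1), Srp19 (knockout MII array 1 or 2) and Srp54a (wild-type GV array 2 or knockout MII array 2 or 3) below the threshold. Array weights did so for Srp14 (adjusted p = 0.042) and Srp19 (0.036). Other moderation (adjusted p = 0.032) or bright genes alone (0.049) did so for Srp54a.

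The receptor subunit Srpr had the widest scatter of any member. Its log2 values were 9.95, 10.73 and 10.59 at GV and 6.46, 4.16 and 8.62 at MII in wild type, and 10.39, 9.68 and 10.40 at GV and 4.31, 5.23 and 10.76 at MII in the knockout. All GV arrays were bright, 2 of 3 knockout MII arrays and 1 of 3 wild-type MII arrays lay at 5.23 or lower, and knockout MII array 3 was as bright as the GV arrays. The differences of -4.01 ± 1.47 in wild type (adjusted p = 0.077) and -3.39 ± 1.47 in the knockout (adjusted p = 0.098) were not called. Without knockout MII array 3 the difference in the knockout was -5.39 (adjusted p = 0.0044) and that in wild type, through the smaller shared spread, had an adjusted p of 0.0086. The wild-type difference also passed without wild-type MII array 3 (adjusted p = 0.043) and with the compared groups alone (0.034). A replicate block (adjusted p = 0.039) or bright genes alone (0.040) gave the same. Srp72, the partner of Srp68, had a knockout difference of -2.25 ± 0.93 (adjusted p = 0.087), with an SD of 2.54 among knockout MII arrays against 0.22 in wild-type MII. Its knockout MII values were 8.90, 8.51 and 4.31, so the size of the difference rested on array 3. Without that array it was -0.79 (adjusted p = 0.13), while without knockout MII array 1 it was -3.08 and passed (adjusted p = 0.032).

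In the translocon the gene of the small subunit was called lower in both genotypes and the channel gene in neither. The difference between their changes was not tested. Sec61a1 encodes the pore-forming subunit, and its log2 values were 9.38, 9.21 and 9.26 at GV and 8.74, 8.92 and 10.07 at MII in wild type, and 9.41, 9.14 and 9.40 at GV and 9.71, 9.24 and 9.72 at MII in the knockout. The stages overlapped in both genotypes, with differences of -0.04 ± 0.33 in wild type (adjusted p = 0.94) and 0.24 ± 0.33 in the knockout (adjusted p = 0.57). Sec61a2, a second gene for the pore-forming subunit, was dim, at 4.42, 4.44 and 5.15 at GV and 5.16, 5.13 and 4.80 at MII in wild type, and 4.12, 4.38 and 4.98 at GV and 4.79, 4.91 and 5.79 at MII in the knockout, and its differences of 0.36 and 0.67 were not called. Sec61b encodes a small subunit that sits beside the pore. It read 12.04, 12.01 and 11.37 at GV and 9.66, 8.19 and 9.04 at MII in wild type, and 11.78, 11.13 and 10.96 at GV and 9.70, 9.42 and 9.27 at MII in the knockout. Every MII array was below every GV array, and the gene fell 7.17-fold in wild type and 3.54-fold in the knockout, with log2 differences of -2.84 ± 0.38 in wild type (adjusted p = 0.00041) and -1.82 ± 0.38 in the knockout (adjusted p = 0.0053). In the knockout the call was lost when the array spread entered the fit (-0.68, adjusted p = 0.44). Sec62 and Sec63, which help chains that enter after synthesis, stood at 0.12 and -0.36 and at -0.32 and -0.57 and were not called.

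The translocon-associated protein (TRAP) complex, which sits beside the channel and helps certain chains to enter, held calls in both directions. Ssr3, the gamma subunit, rose, Ssr2 and Ssr4, the beta and delta subunits, fell, and Ssr1, the alpha subunit, had differences of -0.32 and 0.14, neither called. Ssr3 read 9.95, 9.96 and 10.03 at GV and 12.58, 11.39 and 12.34 at MII in wild type, and 9.94, 9.65 and 9.80 at GV and 12.57, 12.52 and 12.59 at MII in the knockout. The 3 knockout MII arrays lay within 0.068 log2 units of each other, and all MII arrays were above all GV arrays. Ssr3 rose by 2.13 ± 0.29 log2 units in wild type (adjusted p = 0.00043) and by 2.77 ± 0.29 in the knockout (adjusted p = 0.0001), which is 4.37-fold and 6.81-fold. Ssr4 read 10.35, 10.23 and 9.77 at GV and 3.33, 7.29 and 2.94 at MII in wild type, and 10.40, 10.92 and 10.23 at GV and 7.54, 4.93 and 4.11 at MII in the knockout. It fell on every MII array, to levels that on single arrays were below the lower quartile of the array, with differences of -5.60 ± 1.07 in wild type (adjusted p = 0.0034) and -4.99 ± 1.07 in the knockout (adjusted p = 0.0065). The wild-type and knockout falls both held in every fit that left out 1 array, though with dim values at MII their size moved. In wild type the difference was -6.98 without wild-type MII array 2, -5.00 without array 1 and -4.81 without array 3, and in the knockout it was -6.00 without knockout MII array 1 and -4.28 without array 3. The knockout call did not hold when the array spread entered the fit (adjusted p = 0.14).

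Ssr2 was dim in wild-type MII and scattered at MII in the knockout. Its log2 values were 10.09, 10.61 and 10.30 at GV and 4.79, 4.50 and 4.15 at MII in wild type, and 10.38, 10.15 and 10.78 at GV and 5.12, 8.28 and 9.46 at MII in the knockout. Wild-type MII arrays sat together close to the arrays' lower quartile of 4.11 to 4.36, whereas knockout MII arrays ran from near that level to near the GV level. The stage differences were -5.85 ± 0.82 in wild type (adjusted p = 0.00057) and -2.82 ± 0.82 in the knockout (adjusted p = 0.027), a 57.8-fold fall in wild type and a 7.05-fold fall in the knockout. The wild-type fold is set against values near the lower quartile, so its size is uncertain. The knockout fold rested on array 1, since the difference was -1.57 without knockout MII array 1 (2.97-fold, adjusted p = 0.014) and -3.74 without array 3. The knockout call was lost without any 1 of the 3 knockout GV arrays, with a further quantile normalisation and in a fit of the compared groups alone (highest adjusted p = 0.089).

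**Figure D3:**
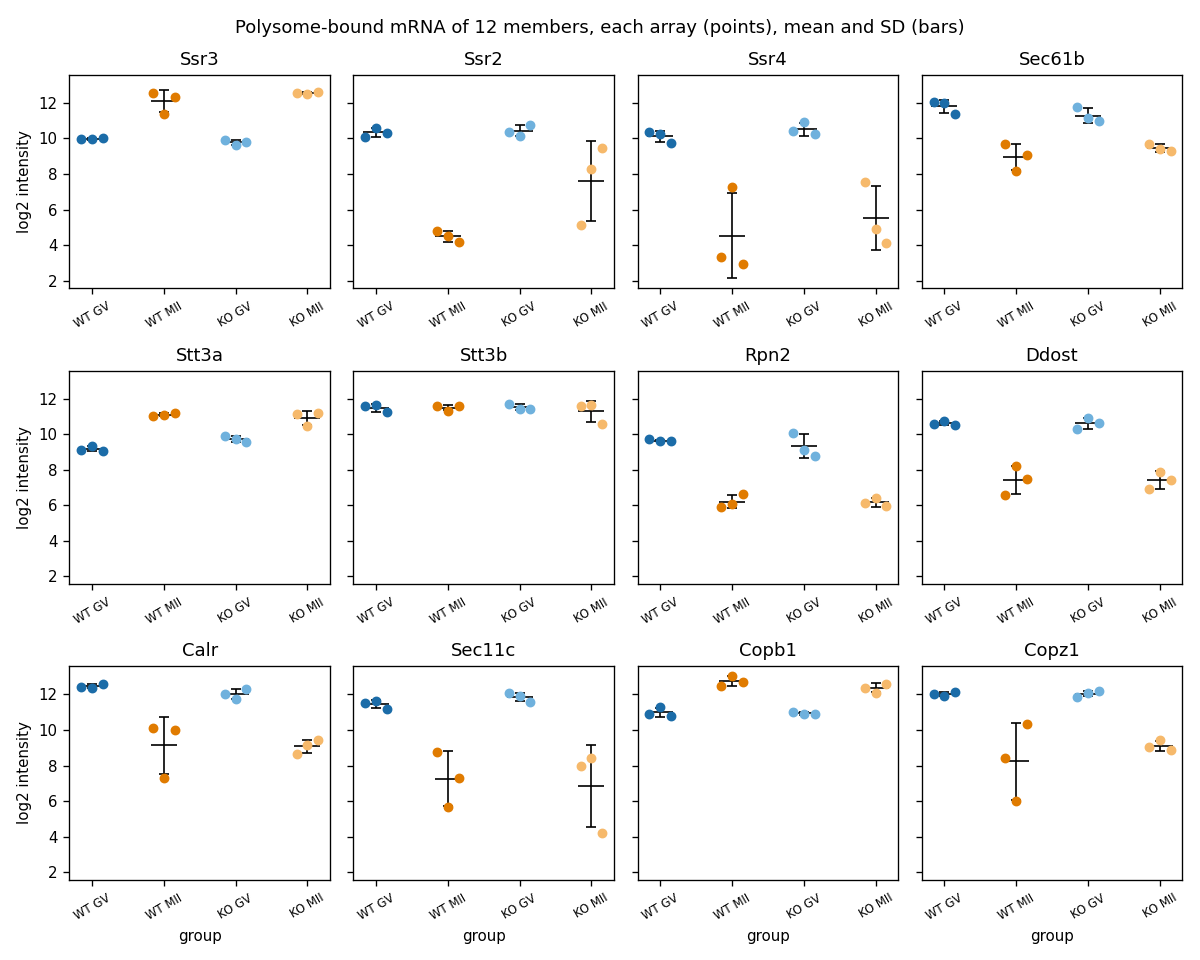
Log2 intensity (y axis) of 12 members on each array (points) in the 4 groups (x axis; WT, wild type; KO, Areg -/-), with the mean as a horizontal bar and the SD as error bars (3 arrays per group). Ssr3, Stt3a and Copb1 are higher on every MII array than on any GV array, the other named genes except Stt3b are lower, and Ssr2 spreads from 5.12 to 9.46 in knockout MII.

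Signal peptidase cuts the signal peptide from the chain with either of its catalytic subunits, Sec11a or Sec11c. Sec11c was called lower in both genotypes and Sec11a in neither. Sec11c read 11.49, 11.64 and 11.20 at GV and 8.77, 5.67 and 7.32 at MII in wild type, and 12.08, 11.92 and 11.60 at GV and 7.96, 8.43 and 4.21 at MII in the knockout. All MII arrays lay below all GV arrays, and the log2 differences were -4.19 ± 0.99 in wild type (adjusted p = 0.011) and -5.002 ± 0.99 in the knockout (adjusted p = 0.0042). Sec11a read 11.73, 11.21 and 11.56 at GV and 11.23, 10.31 and 11.19 at MII in wild type, and 11.44, 11.17 and 11.31 at GV and 11.01, 11.33 and 11.01 at MII in the knockout. Its stages overlapped in both genotypes, and the differences of -0.59 ± 0.28 in wild type (adjusted p = 0.16) and -0.19 ± 0.28 in the knockout (adjusted p = 0.61) were not called. Without wild-type MII array 1 or 2 the wild-type difference of Sec11c was -4.95 or -3.40, and without knockout MII array 2 or 3 that of the knockout was -5.78 or -3.67, all still called. The difference between the paralogues' changes was not tested. Among the accessory subunits Spcs1 fell, with values of 11.86, 11.71 and 11.08 at GV and 9.32, 8.38 and 9.78 at MII in wild type, and 12.27, 12.01 and 11.47 at GV and 9.24, 10.004 and 7.15 at MII in the knockout. Its differences were -2.39 ± 0.63 in wild type (adjusted p = 0.019) and -3.12 ± 0.63 in the knockout (adjusted p = 0.0046), and every MII array was below every GV array. The wild-type call was lost without wild-type GV array 1 or 2 or wild-type MII array 2, and the knockout difference was -3.72 without knockout MII array 2 and -2.30 without array 3. Spcs2, another accessory subunit, was called higher in the knockout alone, at 0.59 ± 0.40 in wild type (adjusted p = 0.33) and 1.496 ± 0.40 in the knockout (adjusted p = 0.02), and that call was lost without knockout GV array 3 or knockout MII array 2. Spcs3, also an accessory subunit, was dim and had differences of -0.24 and -0.33. With the array spread in the fit, Sec11c and Spcs1 passed in neither genotype, with adjusted p values of 0.12 and 0.31 for Sec11c and 0.18 and 0.33 for Spcs1, and Spcs2 did not pass in the knockout (adjusted p = 0.085).

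Oligosaccharyltransferase transfers the glycan onto asparagine residues. In both genotypes Stt3a was called higher, and Rpn2, Ddost and Dad1, subunits shared by the enzyme's forms, were called lower. The shared subunit Rpn1 was called in neither. Stt3a, the catalytic subunit that works on chains still being made, rose. Its log2 values were 9.14, 9.33 and 9.06 at GV and 11.02, 11.08 and 11.22 at MII in wild type, and 9.91, 9.71 and 9.56 at GV and 11.11, 10.48 and 11.17 at MII in the knockout. Every MII array exceeded every GV array, and the rise was 3.81-fold in wild type and 2.29-fold in the knockout, with differences of 1.93 ± 0.24 in wild type (adjusted p = 0.00026) and 1.19 ± 0.24 in the knockout (adjusted p = 0.0041). Stt3b, the catalytic subunit that can act after synthesis, read 11.56, 11.63 and 11.23 at GV and 11.59, 11.32 and 11.59 at MII in wild type, and 11.71, 11.43 and 11.42 at GV and 11.59, 11.67 and 10.59 at MII in the knockout. Apart from knockout MII array 3 its arrays covered 0.48 log2 units, and the differences of 0.02 ± 0.29 in wild type (adjusted p = 0.96) and -0.24 ± 0.29 in the knockout (adjusted p = 0.53) were not called. Rpn2, which encodes ribophorin II, a subunit shared by both forms of the enzyme, read 9.71, 9.61 and 9.63 at GV and 5.90, 6.10 and 6.64 at MII in wild type, and 10.08, 9.14 and 8.75 at GV and 6.15, 6.42 and 5.93 at MII in the knockout. The stages did not overlap, and Rpn2 fell 10.8-fold and 8.9-fold, with differences of -3.44 ± 0.34 in wild type (adjusted p = 8.6e-05) and -3.15 ± 0.34 in the knockout (adjusted p = 0.00012).

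The other subunits shared by both forms also had lower means at MII. Ddost, a shared non-catalytic subunit, read 10.59, 10.74 and 10.55 at GV and 6.58, 8.19 and 7.49 at MII in wild type, and 10.29, 10.90 and 10.66 at GV and 6.89, 7.90 and 7.44 at MII in the knockout. It fell by about the same amount in the genotypes, -3.20 ± 0.39 in wild type (adjusted p = 0.00026) and -3.21 ± 0.39 in the knockout (adjusted p = 0.00025). Dad1, the small subunit first known as a defender against cell death, fell as well, with differences of -2.04 ± 0.37 in wild type (adjusted p = 0.0026) and -2.48 ± 0.37 in the knockout (adjusted p = 0.0008). A second probe set of Dad1 gave -2.01 and -2.75. Rpn1, encoding ribophorin I, stood at -1.25 ± 0.49 in wild type (adjusted p = 0.1) and -0.73 ± 0.49 in the knockout (adjusted p = 0.26), and without knockout MII array 3, where it was brightest of that group, it passed in both genotypes (-1.25, adjusted p = 0.0076, and -1.43, adjusted p = 0.0086). In wild type Rpn1 also passed with array weights (adjusted p = 0.028) and with the compared groups alone (0.026). Ostc, a subunit of the Stt3a form, had differences of -0.99 and -1.33 with wide scatter at MII and was not called. The calls of Stt3a, Rpn2, Ddost and Dad1 held in both genotypes in all 20 alternatives.

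Calreticulin (Calr) and calnexin (Canx) are the soluble and the membrane-bound lectin that retain glycoproteins until they fold. Calr was called lower in both genotypes and Canx in neither. Calr read 12.41, 12.39 and 12.58 at GV and 10.09, 7.30 and 10.01 at MII in wild type, and 12.05, 11.72 and 12.31 at GV and 8.67, 9.14 and 9.43 at MII in the knockout. Every MII array was lower than every GV array, and wild-type MII array 2 was the lowest. The falls were 10.04-fold and 7.73-fold, or -3.33 ± 0.61 in wild type (adjusted p = 0.0026) and -2.95 ± 0.61 in the knockout (adjusted p = 0.005). Without wild-type MII array 2 the wild-type fall was 5.32-fold (-2.41, adjusted p = 4.7e-04). Canx read 9.63, 9.60 and 9.59 at GV and 10.10, 8.97 and 9.80 at MII in wild type, and 9.67, 8.62 and 9.11 at GV and 9.57, 9.28 and 8.90 at MII in the knockout. Its 3 wild-type GV arrays lay within 0.038 log2 units, the stages overlapped, and the differences of 0.02 ± 0.34 in wild type (adjusted p = 0.98) and 0.12 ± 0.34 in the knockout (adjusted p = 0.8) were not called. Whether Calr and Canx differ in their change was not tested. Pdia3, the disulfide isomerase that works with both lectins, read 11.18, 10.998 and 11.26 at GV and 10.06, 9.85 and 9.54 at MII in wild type, and 11.05, 10.53 and 11.42 at GV and 9.86, 9.75 and 8.87 at MII in the knockout. It fell in both genotypes, with -1.33 ± 0.32 in wild type (adjusted p = 0.012) and -1.505 ± 0.32 in the knockout (adjusted p = 0.0059). The isomerases Pdia4 and Pdia6 had differences of -0.73 and -0.66 and of -0.13 and -0.19 and were not called. With the array spread in the fit, Calr in the knockout (adjusted p = 0.24) and Pdia3 in both genotypes (adjusted p = 0.0502 and 0.12) no longer passed.

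Genes of the lectin chaperones are known targets of the unfolded protein response, in which the factors ATF6 and XBP1 act through the ER stress response element, spelled CCAAT, then 9 bases of any kind, then CCACG. The promoters of Calr, Canx and Pdia6 held these letters, and they are shown because the genes share the letters while Calr alone of them was called with stage. RefSeq promoters of the build GRCm38.p6, from 250 bases before to 50 after the start, were at hand for 41 of the 48 members and were searched on both strands. The letters occurred in 39 of 32851 promoters, or 0.119%, and in these 3 members. Windows of 100 bases are given 5′ to 3′ along the gene with the matching letters, on either strand, in capitals. The Calr window is chr8:84847034-84847133 on the minus strand, that of Canx chr11:50325759-50325858 on the minus strand and that of Pdia6 chr12:17266451-17266550 on the plus strand.
Calr: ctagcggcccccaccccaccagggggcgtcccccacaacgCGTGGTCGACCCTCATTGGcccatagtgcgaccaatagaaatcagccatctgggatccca
Canx: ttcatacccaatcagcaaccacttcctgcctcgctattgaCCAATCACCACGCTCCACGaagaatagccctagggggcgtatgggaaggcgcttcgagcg
Pdia6: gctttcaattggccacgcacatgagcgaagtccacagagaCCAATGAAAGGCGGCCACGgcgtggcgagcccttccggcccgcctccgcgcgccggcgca
The match in Calr is on the opposite strand and those of Canx and Pdia6 on the gene's own strand. Beside these sequences stand the stage differences in wild type and the knockout of -3.33 and -2.95 for Calr, both called, and of 0.02 and 0.12 for Canx and -0.13 and -0.19 for Pdia6, with no call. In the further gene lists described below, 7 more genes carried the letters. Hspa5, which encodes the chaperone BiP, had -1.52 and -1.65, Creld2, an ER stress protein, -1.63 and -1.52, and Ero1b, an oxidase that drives disulfide formation, -1.24 and -1.85, all called lower in both genotypes. Hsp90b1, the ER form of HSP90, had -0.75 and -1.48 and was called lower in the knockout. Dnajc3, a co-chaperone of BiP, had 1.31 and 1.58, called higher in both. Alg12, a mannosyltransferase, had -0.20 and -0.52 and Syvn1, a ubiquitin ligase of ER-associated degradation, 0.64 and 0.26, with no call. A match is a description of letters and not a binding site.

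COPII coats are built from the GTPase Sar1, an inner layer of Sec23 and Sec24, of which Sec24 picks the cargo, and an outer layer of Sec13 and Sec31. In the inner layer Sec23a and Sec24a were called higher and Sec24c lower in both genotypes, and Sec23b and Sec24b were called in neither. The differences between the paralogues' changes were not tested. Sec23a read 10.85, 10.85 and 10.36 at GV and 12.14, 12.20 and 11.83 at MII in wild type, and 11.18, 10.25 and 10.26 at GV and 12.003, 11.82 and 11.11 at MII in the knockout. In wild type the stages did not overlap and the difference was 1.37 ± 0.33 (adjusted p = 0.011), and in the knockout MII array 3 fell below GV array 1, with 1.08 ± 0.33 (adjusted p = 0.031). The knockout call was lost without knockout GV array 2 or 3 or knockout MII array 1 or 2, in a fit of the compared groups alone (adjusted p = 0.078) and with the array spread in the fit (1.63, adjusted p = 0.072). Sec23b was dim, with values of 4.05, 4.81 and 3.31 at GV and 4.42, 3.94 and 4.32 at MII in wild type, and 5.76, 5.21 and 4.29 at GV and 4.05, 4.46 and 3.82 at MII in the knockout. Its stages overlapped in both genotypes, several of its values lay below their array's lower quartile, and its differences of 0.17 and -0.98 were not called. Without knockout GV array 3 the knockout difference passed (-1.38, adjusted p = 0.045).

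Of the cargo-binding subunits, Sec24a rose from a dim level. It read 5.35, 4.55 and 5.41 at GV and 8.37, 7.16 and 7.35 at MII in wild type, and 5.52, 4.98 and 4.25 at GV and 7.64, 6.15 and 6.55 at MII in the knockout, so that all MII arrays exceeded all GV arrays, and the differences were 2.52 ± 0.48 in wild type (adjusted p = 0.0034) and 1.86 ± 0.48 in the knockout (adjusted p = 0.017). The knockout call was lost without knockout GV array 3 (adjusted p = 0.0603). Sec24b, its closest paralogue, read 9.26, 9.46 and 9.60 at GV and 9.19, 9.98 and 10.39 at MII in wild type, and 9.14, 9.30 and 9.44 at GV and 8.70, 9.19 and 7.77 at MII in the knockout. The stages overlapped, and the differences of 0.41 ± 0.38 in wild type (adjusted p = 0.47) and -0.74 ± 0.38 in the knockout (adjusted p = 0.15) had opposite signs and no call. Sec24c fell, with values of 10.44, 10.54 and 10.24 at GV and 6.47, 8.21 and 8.60 at MII in wild type, and 10.27, 11.21 and 10.35 at GV and 6.97, 8.61 and 7.64 at MII in the knockout. Each MII array was below each GV array, and the differences were -2.65 ± 0.55 in wild type (adjusted p = 0.0055) and -2.87 ± 0.55 in the knockout (adjusted p = 0.0035). Without wild-type MII array 1 the wild-type difference was -2.00 and was still called. Sec24d, the closest paralogue of Sec24c, read 7.45, 9.20 and 6.31 at GV and 9.41, 10.29 and 9.85 at MII in wild type, and 8.09, 7.10 and 7.001 at GV and 9.22, 8.30 and 8.66 at MII in the knockout. It was higher at MII in wild type, 2.19 ± 0.62 in wild type (adjusted p = 0.026) and 1.33 ± 0.62 in the knockout (adjusted p = 0.12), but wild-type GV array 2 lay close to the MII arrays. The wild-type call was lost without wild-type GV array 1 or 3 or wild-type MII array 2 or 3. It was also lost in a fit of the compared groups alone (adjusted p = 0.073) and with array weights (1.498, adjusted p = 0.087). With 1 array left out, the wild-type difference ran from 1.52 without wild-type GV array 3 to 2.97 without array 2. The knockout difference passed without wild-type GV array 2 (adjusted p = 0.046) and with a further quantile normalisation (1.91, adjusted p = 0.031).

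Of the 4 genes for Sar1 and the outer coat, Sar1a alone was called, in the knockout. Sar1a read 10.91, 10.59 and 10.15 at GV and 9.96, 8.36 and 9.31 at MII in wild type, and 11.02, 10.51 and 10.79 at GV and 8.57, 10.10 and 8.71 at MII in the knockout. All its MII arrays were below the GV arrays of the same genotype, with differences of -1.34 ± 0.47 in wild type (adjusted p = 0.066) and -1.65 ± 0.47 in the knockout (adjusted p = 0.025), and the knockout call was lost without knockout GV array 1 or 3 or knockout MII array 1 or 3, when the arrays were quantile normalised again (adjusted p = 0.077) and once the array spread entered the fit (-1.24, adjusted p = 0.41). Sar1b read 9.54, 9.82 and 9.62 at GV and 8.65, 7.57 and 9.29 at MII in wild type, and 10.14, 10.11 and 9.004 at GV and 8.65, 8.32 and 8.76 at MII in the knockout. Its differences of -1.16 ± 0.43 in wild type (adjusted p = 0.079) and -1.17 ± 0.43 in the knockout (adjusted p = 0.06) were of like size in the genotypes and were not called. Single left-out arrays brought Sar1a in wild type (wild-type MII array 1 or knockout MII array 2) and Sar1b in wild type (wild-type MII array 3) or the knockout (wild-type MII array 2 or 3 or knockout GV array 3) below the threshold. Array weights did so for Sar1a in wild type (adjusted p = 0.030) and Sar1b in the knockout (0.034). Bright genes alone did so for Sar1a in wild type (adjusted p = 0.043). The outer coat genes Sec13 and Sec31a had differences of -0.75 and -1.02 and of 0.45 and 1.07 and were not called, the closest being Sec13 in the knockout (adjusted p = 0.051). In the knockout Sec13 passed without knockout GV array 2. It also passed with other moderation (adjusted p = 0.035), array weights (0.049), a replicate block (0.047) or bright genes alone (0.047). Sec31a passed there without wild-type GV array 3 or knockout MII array 2. A further quantile normalisation (adjusted p = 0.038) or a replicate block (0.037) also brought Sec31a below the threshold.

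COPI subunits also divided. Copb1, the beta subunit, read 10.89, 11.30 and 10.80 at GV and 12.47, 13.04 and 12.73 at MII in wild type, and 11.00, 10.90 and 10.89 at GV and 12.38, 12.10 and 12.61 at MII in the knockout. Every MII array exceeded every GV array, with differences of 1.75 ± 0.24 in wild type (adjusted p = 0.0005) and 1.44 ± 0.24 in the knockout (adjusted p = 0.0016). Cope, the epsilon subunit, read 11.55, 11.40 and 11.59 at GV and 8.36, 8.23 and 9.25 at MII in wild type, and 10.91, 11.18 and 11.55 at GV and 7.55, 8.04 and 9.77 at MII in the knockout, and its MII arrays lay below all GV arrays. Its differences were -2.90 ± 0.50 in wild type (adjusted p = 0.0019) and -2.76 ± 0.50 in the knockout (adjusted p = 0.0024). Without knockout MII array 3 the knockout difference was -3.42. Copz1, the zeta subunit, read 12.01, 11.93 and 12.17 at GV and 8.43, 5.998 and 10.32 at MII in wild type, and 11.88, 12.10 and 12.18 at GV and 9.02, 9.42 and 8.87 at MII in the knockout. The 6 GV arrays of Copz1 lay within 0.305 log2 units, while the wild-type MII arrays covered 4.32, and the falls were -3.79 ± 0.78 in wild type (adjusted p = 0.0053) and -2.95 ± 0.78 in the knockout (adjusted p = 0.019). In wild type the fall was -2.66 without wild-type MII array 2, a 6.32-fold change, and -4.82 without array 3. The knockout call of Copz1 was lost without knockout GV array 2 or 3 or knockout MII array 3, and neither genotype passed with the array spread in the fit (adjusted p = 0.061 and 0.57). Copa, the alpha subunit, had differences of 0.38 ± 0.22 in wild type (adjusted p = 0.25) and 0.66 ± 0.22 in the knockout (adjusted p = 0.049), and its knockout call was lost in 15 of 20 alternatives, among them leaving out any 1 array other than wild-type MII array 2 and knockout MII array 2, the compared groups alone (adjusted p = 0.091) and the array spread in the fit (0.61, adjusted p = 0.33). Copb2, the beta prime subunit, had -0.32 and -0.69 and was not called. In the knockout it passed without wild-type or knockout MII array 1 and with array weights (adjusted p = 0.036).

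A shorter element through which XBP1 and ATF6 act, spelled TGACGTGG, occurred in 222 of the 32851 promoters, or 0.676%, on either strand. Among the members it was found in Sec24d, Sec23a, Copb1 and Copb2, and the windows are shown because all of these are coat genes. Sec23a and Copb1 were called higher in both genotypes, Sec24d in wild type and Copb2 in neither. They run for 100 bases and end at the start site or at the end of the match. They lie at chr3:123267396-123267495 on the plus strand for Sec24d, chr12:59012004-59012103 on the minus strand for Sec23a, chr7:114254681-114254780 on the minus strand for Copb1 and chr9:98563632-98563731 on the plus strand for Copb2, in GRCm38.p6.
Sec24d: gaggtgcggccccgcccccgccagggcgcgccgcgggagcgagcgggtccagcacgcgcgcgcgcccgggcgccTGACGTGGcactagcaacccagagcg
Sec23a: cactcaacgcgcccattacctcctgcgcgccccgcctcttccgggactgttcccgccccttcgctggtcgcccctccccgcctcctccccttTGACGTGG
Copb1: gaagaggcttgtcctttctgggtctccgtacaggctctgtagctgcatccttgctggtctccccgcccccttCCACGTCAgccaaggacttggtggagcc
Copb2: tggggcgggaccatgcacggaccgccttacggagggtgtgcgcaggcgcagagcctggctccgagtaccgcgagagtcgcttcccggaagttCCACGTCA
The capitals read TGACGTGG on the gene's own strand in Sec24d and Sec23a and CCACGTCA, the same letters on the opposite strand, in Copb1 and Copb2. Of the members that rose in both genotypes, Ssr3, Stt3a and Sec24a had promoters in the table and no match in this window. Among the further gene lists described below, 6 genes carried the element. Gbf1, at 1.33 and 1.15, was called higher in both genotypes, Stx5a, at -1.37 and -2.46, lower in the knockout, and Txndc5, at -0.71 and -0.49, lower in wild type. Sec16b (-1.43 and -1.06), Arf1 (0.17 and -0.35) and Kdelr3 (0.49 and 0.22) were not called.

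The stage calls of the genotypes overlapped, as those of all genes did. The wild-type and knockout stage comparisons share no array, although they share the estimate of spread. Of the 48 members 13 were lower in both genotypes and 5 were higher in both, and 0 were called in opposite directions. The falls were those of Sec61b, Ssr2, Ssr4, Spcs1, Sec11c, Rpn2, Ddost, Dad1, Calr, Pdia3, Sec24c, Cope and Copz1, and the rises those of Ssr3, Stt3a, Sec23a, Sec24a and Copb1. These 18 were 94.7% of the 19 wild-type calls and 78.3% of the 23 knockout calls. Over all genes, 2697 called in the same direction in both genotypes were 75.5% of the 3574 wild-type calls and 57.7% of the 4672 knockout calls, with 4 genes called in opposite directions. Among genes above the median brightness the shares were 78.4% and 71.9%. Sec24d was called in wild type alone, and Srp19, Srp68, Sar1a, Spcs2 and Copa in the knockout alone, but none of them passed the interaction test. The sign of the difference was the same in 41 members and opposite in 7, among which the called genes were 0. That is 85.4% of members with the same sign, beside 84.1% of all genes and 86.5% of those above the median brightness.

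**Figure D4:**
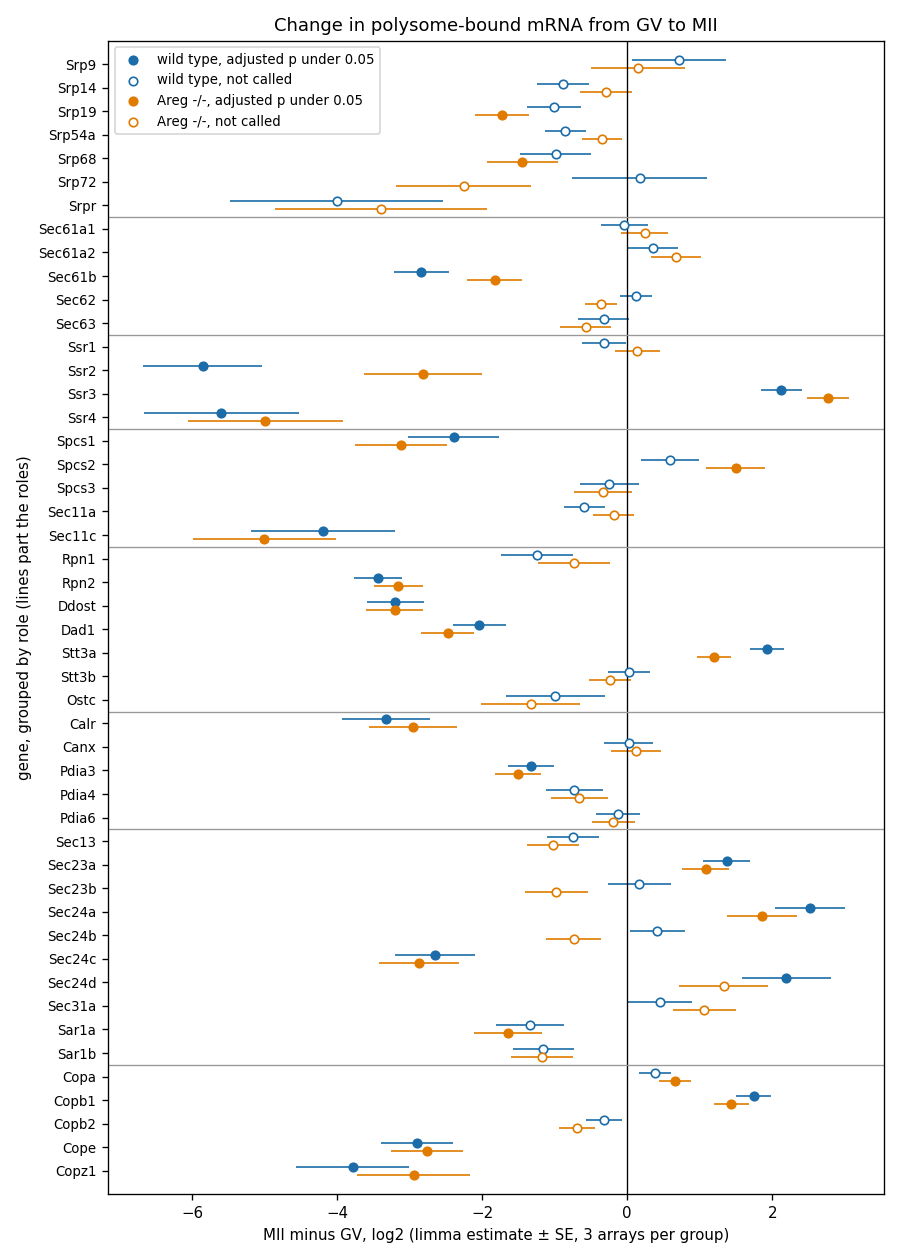
MII minus GV difference in log2 units (x axis; points are limma estimates and bars are SE, 3 arrays per group) for each of the 48 genes (y axis, grouped by role). Filled points passed an adjusted p under 0.05, and blue is wild type and orange the knockout. The 13 genes that fell in both genotypes lie left of the zero line and the 5 that rose in both lie right of it, and Ssr2 has the widest gap between genotypes.

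Between the genotypes at the same stage no member passed. At GV 0 of 48 were called, against 0.0% of all genes. An unadjusted p under 0.05 was found for 4 of 48, beside 3.55% of all genes. Among genes above the median brightness it was found for 299 of 8289. At MII 0 of 48 were called, against 0.0603% of all genes (10 genes). Here 5 of 48 had an unadjusted p under 0.05, beside 6.18% of all genes and 783 of the 8289 bright genes. The test of the interaction (stage difference of the knockout less that of wild type) gave 0 calls against 0.0% of all genes. For it 2 of 48 members had an unadjusted p under 0.05, beside 4.66% of all genes and 504 of the 8289 bright genes. The 95% confidence intervals of the genotype differences extended a median of 0.85 log2 units to either side, from 0.48 for Sec62 to 3.23 for Srpr, and those of the interaction a median of 1.20. These intervals are not adjusted for the number of genes tested, so differences of that size and larger ones could be missed at this number of arrays.

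The lowest adjusted p between genotypes was that of Ssr2 at MII. The knockout exceeded wild type there by 3.14 ± 0.82 log2 units (95% confidence interval 1.33 to 4.94, adjusted p = 0.37), and each knockout MII array was above each wild-type MII array. Knockout MII array 1, at 5.12, lay next to the wild-type arrays, and without it the difference was 4.38 ± 0.38 with an adjusted p of 0.0033. Over the 20 alternatives that adjusted p ranged from 0.0033 to 0.99. Sec24b at MII was next, at -1.30 ± 0.38 (adjusted p = 0.46). Pdia6 stood higher in the knockout at both stages, by 0.93 ± 0.30 at GV (adjusted p = 1.0) and 0.87 ± 0.30 at MII (adjusted p = 0.60), and did not pass at either.

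The agreement among arrays of a group depended on the stage. The median SD over the members was 0.26 at GV and 0.54 at MII in wild type and 0.25 at GV and 0.48 at MII in the knockout, beside 0.39, 0.53, 0.37 and 0.57 for genes above the median brightness. The widest members were Sec24d (1.45) in wild-type GV, Ssr4 (2.40) in wild-type MII, Srp68 (0.85) in knockout GV and Srpr (3.49) in knockout MII.

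Genes that work next to the members were described through 6 further lists, chosen by function with earlier results of these data known. Their counts stand beside 12.6% of all genes lower and 8.97% higher in wild type and 15.2% and 13.0% in the knockout, and beside 23.2% and 15.3%, then 27.8% and 14.2%, of genes above the median brightness, where most genes of each list lay. The assembly of the dolichol-linked glycan, the substrate of oligosaccharyltransferase, had 6 of 22 genes lower (27.3%) and 1 higher in wild type and 7 lower (31.8%) and 1 higher in the knockout. Alg1, which adds the first mannose, had differences of -4.41 and -2.95 in wild type and the knockout. Alg13, part of the enzyme for the second N-acetylglucosamine, had -4.33 and -4.05, and Dolk, which makes dolichol phosphate, had -2.86 and -4.16, all called. Alg10b, a glucosyltransferase of the last step, rose by 1.13 and 1.66. Of 19 genes for glycan trimming and glycoprotein quality control, 6 were lower (31.6%) and 3 higher in wild type and 6 lower and 1 higher in the knockout. Lman1, a cargo receptor for glycoproteins, was called higher in both genotypes (1.57 and 1.62), and Ganab, the catalytic subunit of glucosidase II, was called lower in both (-2.29 and -2.36). Edem3, which acts in the disposal of misfolded glycoproteins, was at 3.01 and 1.73 and was called in wild type. Its relative Edem1, at 1.08 and 0.89, was also called in wild type, whereas Edem2, at -0.86 and -2.30, was called in the knockout. Mcfd2, the partner of Lman1, was at -2.90 and -2.14 and was called in wild type.

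The list of other targeting and membrane insertion factors also holds the oligosaccharyltransferase subunits Krtcap2, Magt1, Tusc3 and Ost4. Of its 22 genes, 10 were lower in wild type (45.5%) and 11 in the knockout, and 0 were higher in either. Their median differences were -1.43 and -1.74, beside 0.20 and 0.30 for all genes and -0.15 and -0.33 for genes above the median brightness, where 19 of the 22 lay. Emc2 and Emc7, subunits of the ER membrane complex, which inserts membrane proteins, had -3.99 and -3.02 and -3.84 and -4.73. Krtcap2, a subunit of the Stt3a form of oligosaccharyltransferase, had -3.56 and -3.69, and all of these were called in both genotypes. Of 18 other ER folding enzymes and chaperones, 7 and 8 were lower (38.9% and 44.4%) and 1 was higher in each genotype. Sil1, the nucleotide exchange factor of BiP, was at -3.10 and -3.36 and Dnajb9, a co-chaperone of BiP, at -2.32 and -3.70, both called in both genotypes. Manf, a secreted ER stress protein, was at -2.10 and -3.29 and was called in the knockout. The rise in this list was that of Dnajc3.

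The 10 sensors and factors of the unfolded protein response included 4 that were higher and 1 that was lower in each genotype, with medians of 0.60 and 0.34. Ern1, which encodes the sensor IRE1, was at 0.77 and 1.53. Atf6, a membrane-bound factor that is freed by cleavage, was at 1.40 and 1.45, and Mbtps2, which encodes a protease that frees it, at 2.51 and 3.65. All were called in both genotypes. Atf4, the factor translated when the sensor PERK is active, fell, at -2.44 and -2.59, also called in both. Of 47 other COPII, COPI, cargo receptor and ER-Golgi genes, 11 were lower (23.4%) and 4 higher in wild type and 13 lower (27.7%) and 3 higher in the knockout. Kdelr2, a receptor that returns chaperones to the ER, had 2.02 and 2.24, Ergic2 1.58 and 1.27, and Gbf1, an exchange factor for the GTPase that recruits COPI, 1.33 and 1.15. Tmed3, a cargo adaptor, had -5.33 and -3.22, Ergic3 -3.95 and -4.24, and Zw10, a part of the complex that tethers returning vesicles, -3.71 and -4.52. Each of these was called in both genotypes. None of the genes in the 6 lists was called between genotypes or in the interaction by limma.

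**Figure D5:**
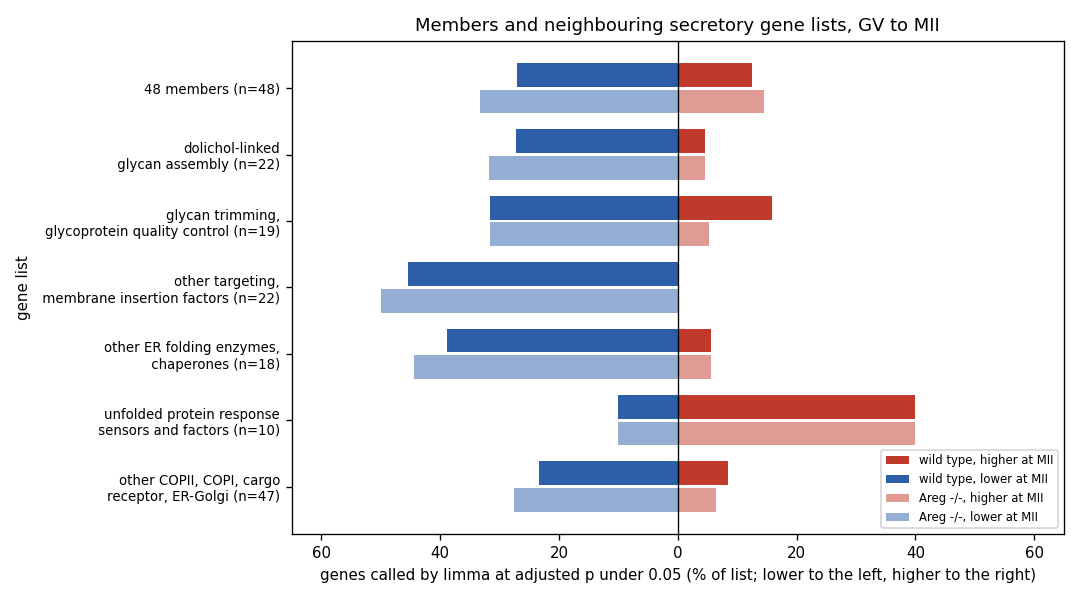
Percent of the genes of each list (y axis, with the number measured) called by limma from GV to MII (x axis), lower to the left in blue and higher to the right in red, with dark bars for wild type and light bars for the knockout. Other targeting and insertion factors have no bar to the right, and the unfolded protein response list has longer bars to the right (4 of 10) than to the left (1 of 10).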

How the data were processed

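The authors deposited log2 intensities, 1 value per probe set and array, made with RMA, per the submitters' processing notes. The sources used here do not give the version or options of RMA. Per the labels' protocols, polysome-bound mRNA was purified (RNeasy Plus Micro), amplified (NuGEN WT-Ovation FFPE), biotin labelled and hybridised. The molecule label names total RNA, whereas the source name speaks of transcripts on polysomes, and the latter reading is kept. The description labels speak of embryos and were not used. RMA sets each array against the others, so a shift of all transcripts together would not be seen. The deposited arrays still differed in distribution, with interquartile ranges from 3.36 to 4.67 log2 units. The origin of that difference was not tested.

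Of 23950 probe sets, 64 were controls and 23886 carried a RefSeq name, of which 21230 matched 1 symbol and 2656 none in a RefSeq gene table (GRCm38.p6). The brightest probe set by mean over the 12 arrays stood for a gene, which gave 16579 genes. The several probe sets of Ssr4, Canx and Sec24c held identical values. No array pair was identical, and array medians ran from 5.61 to 5.79.

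All 12 arrays entered 1 limma fit (limma 3.58.1, R 4.3.3; lmFit, then eBayes without trend), with 4 group means and 8 residual degrees of freedom. Tests were two-sided, with Benjamini-Hochberg adjustment over all genes, and a gene was called at an adjusted p under 0.05. Differences are log2 with limma's standard error (SE), and folds are those differences taken off the log scale. The code was tested on simulated data. The replicates are named independent sample sets in the series' design, and p-values reflect the variation among them alone. Values of every array are given for the members with the largest called rises and falls of their role group in wild type, for paralogue pairs and for Calr and Canx. Srpr was added after its values were seen. From the other lists, up to 3 called genes per direction were named by size, and the other carriers of either promoter element were added after values were seen. The members, lists and rules were chosen with earlier results of these data known. The 20 alternatives were other moderation, array weights, a further quantile normalisation, the array spread as a covariate, the compared groups alone, a replicate block, the mean of probe sets, bright genes alone and leaving out each of the 12 arrays. A description by protein length was not run.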

Additional observations from a re-analysis of the deposited data

How the results depend on the processing

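No stage call of a member reversed in the 20 alternatives. Of the 19 calls in wild type 14 were kept in every alternative, and of the 23 in the knockout 8. The members lower in the knockout, 16, numbered 6 when the array spread was a covariate, and their median went from -0.71 to -0.26. The spread itself differed with stage, so the covariate and the stage overlap. The median of all genes turned negative in that fit (-0.032 in wild type, -0.045 in the knockout) and among bright genes alone (-0.15 and -0.33). Leaving out 1 array gave 5 to 6 higher and 12 to 16 lower members in wild type and 3 to 7 higher and 13 to 17 lower in the knockout, with 3 higher without knockout GV array 3. At MII 0 to 1 member differed between genotypes, Ssr2 without knockout MII array 1, while at GV and in the interaction the range was 0 to 0. Same-numbered arrays were not treated as paired, since not every correlation of their deviations exceeded 0.1. They ran from -0.12 to 0.26 over 18 pairs (median 0.13, against -0.04 for 36 pairs of other numbers), the 6 pairs numbered 1 lay between 0.14 and 0.19, and 8 of 12 arrays correlated best with an array of their own number, a hint from the data and not the design. A replicate block gave 6 higher and 14 lower members in wild type, 7 and 17 in the knockout and 0 in each genotype comparison. Members without a call that passed in at least 1 alternative numbered 8 in wild type and 10 in the knockout. Srp9 was among them, higher (2.14 and 2.66) when the array spread entered the fit. Members without a call whose sign turned in an alternative numbered 11 in wild type and 10 in the knockout, with turned values from -0.24 to 0.49. The description by protein length was not run, as no protein sequences were used here. With 3 arrays per group, differences of the size of the confidence intervals given above, and larger ones, could be missed. Dim genes such as Sec61a2 and Sec23b lie near the arrays' lower quartile.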
